A study of Mus musculus with 4 samples.

Results

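The family described here is the 8 Ms4a genes Ms4a4a, Ms4a4b, Ms4a4c, Ms4a4d, Ms4a6b, Ms4a6c, Ms4a6d and Ms4a7, taken by name from the 35869 genes listed in each sample. RNA-seq was performed on CD45+ cells, the immune cells that CD45 microbeads hold back from the stromal vascular fraction of the epididymal white adipose tissue (eWAT) of male WT C57BL/6 mice. The mice were fed ND, the control diet with little fat, or HFD, in which most calories come from fat, for 12 weeks from 8 weeks of age, and 2 samples were sequenced per diet. No knockout or drug enters these 4 samples. How many mice each sample was made from is not stated, so the p-values below measure the spread between samples, which may be technical.

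MS4A proteins cross the membrane several times, with both ends in the cytosol, and several of them are known to act beside receptors. The best known relatives are CD20, made by Ms4a1 in B cells, and the beta chain of the high-affinity IgE receptor, made by Ms4a2 in mast cells. Within the Ms4a4, Ms4a6 and Ms4a7 branch, Ms4a4a, Ms4a6d and Ms4a7 are genes of macrophages, whereas Ms4a4b is a gene of T cells and NK cells whose protein associates with the costimulatory receptor GITR. Ms4a4c, Ms4a6b and Ms4a6c are found in both monocytes and lymphocytes, so the division into macrophage and lymphocyte members is not strict for them. In macrophages, MS4A4A associates with the beta-glucan receptor dectin-1, and the human MS4A4A and MS4A6A region is known for its link to soluble TREM2.

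The members form one block on chromosome 19. In GENCODE vM21, an annotation of GRCm38 (the assembly called mm10, to which the authors aligned), they lie at chr19:11321039-11604849, an interval of 284 kb with 9 protein-coding genes of which 8 are members. The block sits inside a run of 19 Ms4a genes. Coding sequences set the close relatives apart. Ms4a4b and Ms4a4c share 91.7% of their aligned coding bases, Ms4a4c and Ms4a4d share 87.9%, and Ms4a6b and Ms4a6c share 86.4%. Ms4a4a shares 69.9% with Ms4a4b, the most for it with any member, and Ms4a7 shares 68.9% with Ms4a6b.

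The 250 bases before the start site are printed for 2 pairs of close relatives whose members had unlike log2 fold changes with diet, a choice made after the values were seen. The sequences are from RefSeq for GRCm38.p6, which holds 7 of the 8 members and not Ms4a6d, and are written 5′ to 3′ on the gene's strand. Capitals mark the longest run that both members of a pair share. They are Ms4a4b at chr19:11443308-11443557, Ms4a4c at chr19:11407411-11407660, Ms4a6b at chr19:11518309-11518558 and Ms4a6c at chr19:11469118-11469367, all on the plus strand. The RefSeq starts of Ms4a4c and Ms4a6b lie inside the GENCODE gene spans given with their values, downstream of the first base of each span, so these 2 windows are not the sequence before the GENCODE start.
Ms4a4b: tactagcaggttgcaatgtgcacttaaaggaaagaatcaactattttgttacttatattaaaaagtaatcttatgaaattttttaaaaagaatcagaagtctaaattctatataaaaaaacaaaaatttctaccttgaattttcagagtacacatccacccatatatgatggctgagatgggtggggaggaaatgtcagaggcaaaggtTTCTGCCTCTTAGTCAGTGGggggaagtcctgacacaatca
Ms4a4c: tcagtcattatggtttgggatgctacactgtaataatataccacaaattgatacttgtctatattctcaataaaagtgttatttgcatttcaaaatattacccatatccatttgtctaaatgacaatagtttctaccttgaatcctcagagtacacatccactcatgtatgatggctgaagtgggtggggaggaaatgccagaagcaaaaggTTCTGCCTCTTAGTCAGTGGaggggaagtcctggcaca
Ms4a6b: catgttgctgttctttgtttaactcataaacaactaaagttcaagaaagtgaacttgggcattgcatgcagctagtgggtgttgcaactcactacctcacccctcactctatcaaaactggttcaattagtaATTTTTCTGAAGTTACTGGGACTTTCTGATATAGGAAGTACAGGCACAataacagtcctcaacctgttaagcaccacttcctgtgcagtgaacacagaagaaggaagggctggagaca
Ms4a6c: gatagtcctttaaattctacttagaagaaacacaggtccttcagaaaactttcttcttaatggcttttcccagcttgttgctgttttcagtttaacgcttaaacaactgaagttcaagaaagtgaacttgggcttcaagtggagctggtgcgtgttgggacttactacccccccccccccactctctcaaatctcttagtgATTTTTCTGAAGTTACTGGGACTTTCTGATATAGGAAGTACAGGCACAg

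The Ms4a4b and Ms4a4c stretches were identical at 80.1% of aligned bases (92.4% aligned), with a longest common run of 20 bases, and those of Ms4a6b and Ms4a6c at 85.1% (70.0% aligned), with a run of 48 bases. Motifs of 5 factors were searched on both strands. The letters GAGGAA, the core of the motif of the myeloid and lymphoid factor PU.1, occurred in Ms4a4b, from 64 to 59 bases before the start, and in Ms4a4c, from 61 to 56 bases before it. They were thus in 2 of the 7 members against 23.3% of 32851 promoters of the same length. The RUNX letters TGTGGT occurred in Ms4a4c alone among the 7, against 14.0% of promoters. The interferon-stimulated response element (2.98% of promoters), the letters TGANTCA of AP-1 (6.75%) and the E-box letters CACGTG (6.02%) were in none of the 7 windows. A match is a description of the letters and not of a binding site, and the absence of one says only that these letters are not in the window.

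Levels are in TPM, a transcript abundance corrected for gene length and scaled by the authors to one total in each sample. A comparison of levels between genes rests on the gene lengths the authors used, which are not given. In GENCODE vM21, Ms4a7 has 4453 exon bases and the transcript used here 1576, whereas Ms4a4a has 836 for both. Ratios, shares and orders of levels between members carry this limit. Changes are given as log2 fold changes of TPM + 1, HFD minus ND, from limma with Benjamini-Hochberg adjustment over 16849 genes with at least 1 TPM in at least 2 samples. A gene was taken as changed if its adjusted p was under 0.05 and the diets differed by 1.5-fold or more. In bulk samples, fewer cells of a type and less RNA per cell cannot be told apart.

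The 4 libraries were checked for the cells they should hold. The macrophage list (11 genes) summed to between 18040 and 21920 TPM in every sample, and 2 of its genes were higher and 1 lower in HFD. The lists of T cells (9 of 9 genes tested) and of NK cells and ILC1 (7 of 7) were lower in HFD throughout. Of these genes, Klre1 was under 1 TPM in both HFD samples and Cd6 in HFD replicate 1. Both passed the filter only with the ND samples, where they are high. The fibroblast genes, which CD45 selection should remove, summed to 437.9 and 470.4 TPM in the ND samples against 2269.8 and 4523.9 TPM in the HFD samples. Spermatid genes stood at 6460 TPM in HFD replicate 1 and at 1733.9 to 1995 TPM in the others. Without ND replicate 1 or without ND replicate 2, limma called 0 of 16849 genes, with 3862 and 4024 at an unadjusted p under 0.05, so every call below is lost in those fits.

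All 8 members passed the filter on low values, and 5 of 8 changed with diet, against 18.4% of all genes tested. Ms4a7 rose, against 8.08% of genes that rose, and Ms4a4a, Ms4a4b, Ms4a4c and Ms4a6b fell, against 10.3% that fell. Ms4a4d, Ms4a6c and Ms4a6d did not pass the test. The median log2 fold change of the members was -0.51, and that of all genes tested was 0.056. Both HFD values lay on one side of both ND values in 8 of 8 members, as they did in 66.9% of genes tested.

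**Figure D1:**
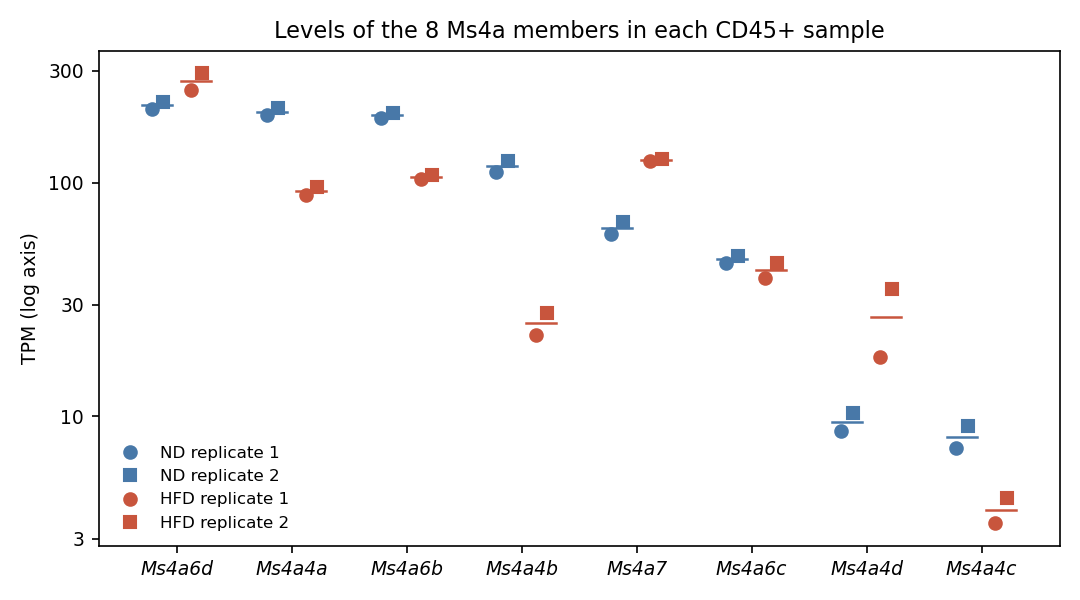
TPM of each member (log axis) in the 2 ND samples (blue) and 2 HFD samples (red), with circles for replicate 1, squares for replicate 2 and a line at each mean. Ms4a7 moves up with HFD from 60.1 and 67.9 TPM to 124.1 and 126.5 TPM, and Ms4a4b moves down from 111.4 and 123.1 TPM to 22.4 and 27.6 TPM.

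Ms4a7 (chr19:11321039-11336146, minus strand) was the member that rose. The ND samples were at 60.1 and 67.9 TPM and the HFD samples at 124.1 and 126.5 TPM, so the HFD samples lay close together and well above both ND samples. The mean was 64.0 ± 5.52 TPM (SD, n = 2) with ND and 125.3 ± 1.70 TPM with HFD, a 1.96-fold difference. On the log2 scale it rose by 0.96 (standard error 0.08, adjusted p = 0.00991 in limma). It was 0.97 with an adjusted p of 0.0565 without HFD replicate 1, and 0.87 and 1.05 without ND replicate 1 and 2 (adjusted p = 0.167 and 0.161 in limma).

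Ms4a4a (chr19:11375523-11392790, plus strand), the neighbor of Ms4a7 and the partner of dectin-1, went the other way. Its levels were 194.2 and 208.0 TPM with ND but 88.6 and 95.3 TPM with HFD, 2.19-fold lower in HFD with no overlap of the diets. On the log2 scale the change was -1.12 (standard error 0.07, adjusted p = 0.00655 in limma). Without ND replicate 1 and 2 it was -1.17 and -1.07, with adjusted p-values of 0.167 and 0.161 in limma. The ratio of Ms4a4a to Ms4a7 was 3.23 and 3.06 in the ND samples and 0.714 and 0.753 in the HFD samples. In these TPM values both macrophage genes therefore changed places in the order of levels, an order that rests on the gene lengths used. On the log2(TPM + 1) scale, the difference of Ms4a7 minus Ms4a4a moved by 2.08 ± 0.05 (standard error, n = 2 per diet) between the diets, a pair picked after its values were seen and given with no test.

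Ms4a6d (chr19:11586604-11604849, minus strand), a gene of macrophages and monocytes, had the highest mean TPM of the members in both diets. Its ND range overlapped that of Ms4a4a. With ND, Ms4a6d stood at 206.9 and 220.5 TPM, and with HFD at 247.5 and 293.1 TPM. Both HFD samples were above both ND samples, but the HFD samples were apart by more than the distance of the lower one from ND. Its log2 fold change was 0.33 with a 95% interval from 0.019 to 0.65 and an adjusted p of 0.106 in limma, so the difference did not pass the thresholds. The change was 0.45 without HFD replicate 1, 0.21 without HFD replicate 2 and 0.16 with quantile normalization.

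Ms4a6b (chr19:11516512-11531256, plus strand), found in T cells as well as in myeloid cells, fell, from 187.9 and 199.0 TPM with ND to 103.5 and 107.6 TPM with HFD. The samples of each diet were close together and the diets were well apart. The change was -0.87 on the log2 scale (standard error 0.05, adjusted p = 0.00687 in limma), and it was -0.91 and -0.83 without ND replicate 1 and 2 (adjusted p = 0.167 and 0.161 in limma).

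Its close relative Ms4a6c (chr19:11469366-11482192, plus strand) was nearly level, at 45.5 and 48.5 TPM with ND against 39.1 and 45.3 TPM with HFD. The upper HFD sample almost reached the lower ND sample. The log2 fold change was -0.16, with a 95% interval from -0.45 to 0.14 (adjusted p = 0.326 in limma). This interval leaves out a 1.5-fold change in either direction, which holds for this fit only, as intervals of the other settings are not given. The change was -0.051 without HFD replicate 1, -0.26 without HFD replicate 2 and -0.28 with quantile normalization. The difference of Ms4a6c minus Ms4a6b moved by 0.71 ± 0.08 between the diets (standard error, n = 2 per diet), again a pair taken after its values were seen. A transcript on the opposite strand, BE692007, overlaps Ms4a6c and was listed at 15.4 to 20.6 TPM. Of 1792 windows of 50 bases in the Ms4a6c transcript, 56.9% also occur in another transcript, mostly BE692007, so reads of these genes are hard to separate where strand is not used. The library kit keeps strand, but whether the counting used it is not given in the sources used here.

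Ms4a4c (chr19:11404770-11427246, plus strand), often counted among interferon-induced genes, was the lowest member. The ND values were 7.3 and 9.1 TPM and the HFD values 3.5 and 4.5 TPM, which correspond to approximately 179, 258, 97.4 and 109 reads. The diets did not overlap, but the fall was small in TPM and the call is close to the threshold. A log2 fold change of -0.88 was found (standard error 0.17, adjusted p = 0.0444 in limma). With all 4 samples the call was lost with no filter, quantile normalization or a term for the replicate number (adjusted p = 0.0867, 0.0772 and 0.0746 in limma). It was also lost with 5 TPM added (-0.55). With any one sample left out the call was lost as well, and the change ran from -1.02 to -0.74. In a list of interferon-stimulated genes, 8 of 10 fell and 0 rose. Of these, Mx1, an antiviral GTPase, was at 35.2 and 37.2 TPM with ND and at 11.6 TPM in each HFD sample. Ms4a4c shares 8.48% of its 50-base windows with other transcripts, mainly Ms4a4b, so some of its reads could belong to that gene.

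Ms4a4d (chr19:11536801-11558467, plus strand) was the member whose HFD samples differed most as a ratio. Values of 8.7 and 10.3 TPM with ND stood against 18.0 TPM in the first HFD sample and 35.1 TPM in the second. Both HFD samples were above ND, and HFD replicate 2 was 1.95 times HFD replicate 1. The log2 fold change was 1.32 (standard error 0.37, adjusted p = 0.085 in limma). It was 1.79 with an adjusted p of 0.0437 without HFD replicate 1, where it passed the thresholds, and 0.86 with an adjusted p of 0.069 without HFD replicate 2. The 5 fibroblast genes differed between the HFD samples in the same direction, with HFD replicate 2 at between 1.88 times (Dcn) and 2.17 times (Lum) HFD replicate 1. Their sum was 1.99 times higher in HFD replicate 2, and 3 of the 5 were changed between the diets, all higher in HFD (5 of 5 without either HFD replicate). The part of these cells in the level of Ms4a4d was not tested.

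Ms4a4b (chr19:11443553-11467055, plus strand), the lymphocyte member, fell the most of the 8. It stood at 111.4 and 123.1 TPM with ND and only 22.4 and 27.6 TPM with HFD. The samples of a diet were close together and the diets far apart. The mean was 117.2 ± 8.27 TPM (SD, n = 2) with ND and 25.0 ± 3.68 TPM with HFD, 4.69-fold lower in HFD. Its change on the log2 scale was -2.19 (standard error 0.13, adjusted p = 0.00678 in limma), and without ND replicate 1 and 2 it was -2.26 and -2.12 (adjusted p = 0.167 and 0.161 in limma).

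**Figure D2:**
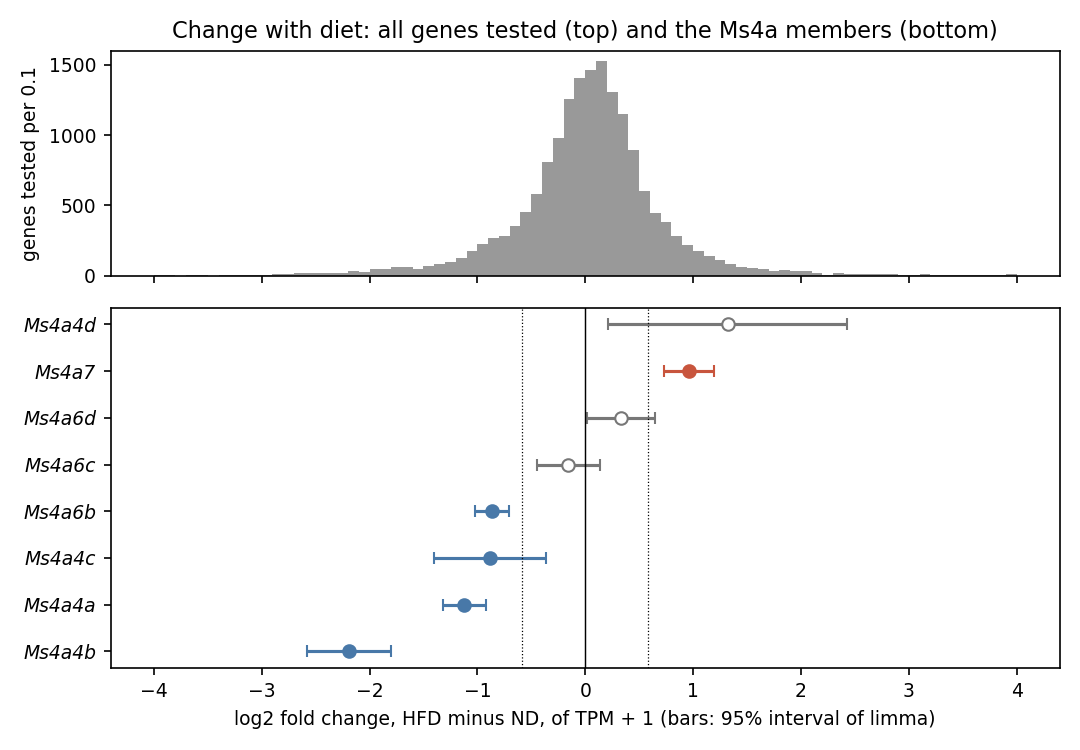
Log2 fold changes (HFD minus ND, of TPM + 1) of all genes tested (top, number of genes per bin of 0.1, values beyond 4 in the end bins) and of the 8 members with 95% intervals from limma (bottom). Filled points passed both thresholds, dotted lines mark 1.5-fold, and the members run from -2.19 for Ms4a4b to 1.32 for Ms4a4d, with the wide interval of Ms4a4d open.

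Each of the other 7 members was then set against Ms4a4b within the same sample, as the difference of their log2(TPM + 1) values. The direction of these differences follows from Ms4a4b having the lowest fold change of the 8. Each is the member's log2 fold change minus that of Ms4a4b, so the order of sizes restates the fold changes above. The sizes are given as a description. Ms4a4d moved by 3.51 ± 0.32 (standard error, n = 2 per diet), from -3.53 and -3.46 in ND to -0.30 and 0.34 in HFD, and by 3.20 without HFD replicate 2. Ms4a7 moved by 3.15 ± 0.13 (3.28 without HFD replicate 2), from -0.88 and -0.85 in ND, below Ms4a4b, to 2.42 and 2.16 in HFD, above it. Ms4a6d moved by 2.52 ± 0.03 and Ms4a6c by 2.04 ± 0.05. The members that fell themselves moved least, with 1.07 ± 0.10 for Ms4a4a, 1.31 ± 0.07 for Ms4a4c and 1.32 ± 0.12 for Ms4a6b. In TPM, Ms4a6d was 1.86 and 1.79 times Ms4a4b in ND and 11.0 and 10.6 times in HFD. An exact two-sided permutation test gave p = 0.33 for each of the 7 (also 0.33 after Benjamini-Hochberg adjustment), the smallest p that 2 samples against 2 allow, so the spread between samples is the better guide.

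Summed over the family, the ND samples reached 822.0 and 886.4 TPM and the HFD samples 646.7 and 735.0 TPM. Its makeup shifted. Ms4a6d held 25.2% and 24.9% of the sum in ND and 38.3% and 39.9% in HFD, and Ms4a7 went from 7.31% and 7.66% to 19.2% and 17.2%. Ms4a4b went from 13.6% and 13.9% to 3.46% and 3.76%, and Ms4a4a from 23.6% and 23.5% to 13.7% and 12.97%. In ND the order was Ms4a6d, Ms4a4a and Ms4a6b, neighbors whose ranges overlap, then Ms4a4b, Ms4a7 and Ms4a6c, each apart, and last Ms4a4d and Ms4a4c, whose ranges overlap. In HFD the order was Ms4a6d, Ms4a7, Ms4a6b, Ms4a4a and Ms4a6c, each apart from the next, then Ms4a4d and Ms4a4b, which overlap, and Ms4a4c.

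The members were also set against the macrophage and T cell lists, though bulk samples do not show which cells carry a member. The mean log2(TPM + 1) of the 11 macrophage genes differed by -0.11 ± 0.03 between the diets, and that of the 9 T cell genes by -1.96 ± 0.24 (standard error, n = 2 per diet). Relative to the macrophage list, Ms4a4d was 1.43 ± 0.45 higher, Ms4a7 1.07 ± 0.09 higher and Ms4a6d 0.44 ± 0.10 higher in HFD (0.26 for Ms4a6d with quantile normalization). Values for Ms4a4b (-2.08 ± 0.14), Ms4a4a (-1.01 ± 0.05), Ms4a4c (-0.77 ± 0.18) and Ms4a6b (-0.76 ± 0.04) were negative, with Ms4a4c at -0.45 under a pseudocount of 5 TPM. Ms4a6c differed from it by -0.048 ± 0.09, with values from -0.18 (quantile normalization) to 0.027 (without HFD replicate 1). Relative to the T cell list, the fall of Ms4a4b shrank to -0.24 ± 0.10, with 2.78 and 2.82 in ND and 2.66 and 2.48 in HFD, and a pseudocount of 0.1 TPM in place of 1 turned it to 0.031, whereas a pseudocount of 5 TPM took it to -0.71. Leaving out HFD replicate 2 gave -0.14, and leaving out HFD replicate 1 gave -0.33. The exact two-sided permutation p was 0.33 or above for each of these, where 0.33 is the smallest this design allows.

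**Figure D3:**
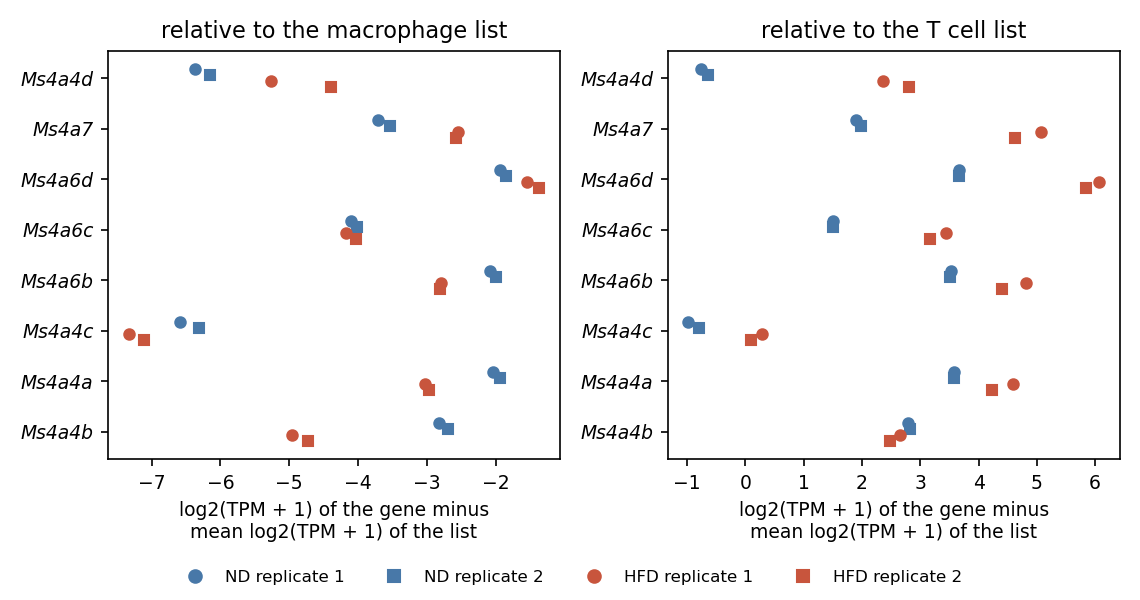
Log2(TPM + 1) of each member minus the mean log2(TPM + 1) of the macrophage list (left) and of the T cell list (right), with 1 point per sample, members ordered by the HFD minus ND difference. Against the T cell list, Ms4a4b lies at 2.78 and 2.82 in ND and 2.66 and 2.48 in HFD, while Ms4a7 lies at 1.9 and 1.98 in ND and at 5.08 and 4.63 in HFD.

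Lists of cell type genes moved as follows. The 9 T cell genes fell in 9 of 9, among them Cd3g, a chain of the T cell receptor complex (log2 fold change -2.63), and 8 of 9 fell without HFD replicate 1. Both CD8 genes fell, and Cd8b1 had the larger change (-1.91); without HFD replicate 1, 1 of 2 was called. The 7 NK and ILC1 genes fell in 7 of 7, among them the natural killer receptor gene Ncr1 (-2.45), with Gzma, a granzyme, as the most abundant. One of them, Klre1, at 3.6 TPM in each ND sample and 0.7 and 0.9 TPM with HFD, passed the filter only through the ND samples, where it is high. Of the 10 resident macrophage genes, 9 fell and 0 rose, led by Timd4 (-3.59), a receptor for dying cells, and Pf4, the most abundant, fell by 1.26 on the log2 scale. All 12 genes of lipid-associated macrophages rose, led by Gpnmb, a lysosomal membrane glycoprotein (6.12). Of 10 monocyte genes, 5 fell, led by Ly6c2 (-1.9), while without HFD replicate 1 there were 4 that fell and 3 that rose, and without HFD replicate 2 there were 7 and 1. Of the macrophage list, the pan-macrophage genes Adgre1 (0.78) and Cd68 (0.86) rose and C1qa (-0.62), a complement component, fell, while Lyz2, a lysozyme, was the most abundant. Of 8 dendritic cell genes, 3 fell, led by Cd209a (-2.61), and 7 fell without HFD replicate 2.

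The genes of proteins known to act with the family were looked at as a list, of which 3 of 8 rose and 1 fell (2 and 1 without either HFD replicate). Trem2, the lipid receptor of macrophages, rose with HFD from 71.8 and 79.0 TPM to 652.9 and 672.9 TPM (log2 fold change 3.12, adjusted p = 0.00378 in limma). Its adaptor gene Tyrobp lay between 2022.1 and 2450.8 TPM in all 4 samples, with a log2 fold change of 0.24 that is under the 1.5-fold limit. Of the sheddases that release soluble TREM2, Adam17 rose (0.79, adjusted p = 0.0121 in limma) and Adam10 was at 0.22 (adjusted p = 0.0891 in limma). Adam17 lost its call with a term for the replicate number (adjusted p = 0.0541 in limma). Clec7a, the gene of dectin-1, rose from 168.0 and 188.0 TPM to 276.0 and 263.3 TPM (0.60, adjusted p = 0.0198 in limma), close to the 1.5-fold limit. It is the gene that drops out of the count without either HFD replicate (0.56 and 0.63, adjusted p = 0.0872 and 0.0678 in limma), and it fell short of the limit in each of the 3 other scalings (0.45 to 0.54). The signaling genes Syk (0.098) and Fcer1g (-0.28) stayed within 1.5-fold. Tnfrsf18, the gene of GITR, fell with HFD from 25.2 and 25.7 TPM to 4.0 and 5.6 TPM (-2.20, adjusted p = 0.00913 in limma), next to -2.19 for Ms4a4b.

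The rest of the cluster gave a mixed picture. Of the 11 other Ms4a genes listed, 6 passed the filter, and Ms4a8a and Ms4a1 fell. Ms4a2 also passed the thresholds, but less firmly. Ms4a8a, a macrophage gene, dropped from 195.2 and 200.3 TPM to 35.9 and 26.6 TPM with HFD (-2.64 on the log2 scale, adjusted p = 0.00726 in limma), a larger fall than that of any member. Ms4a1 went from 21.4 and 21.7 TPM to 3.8 and 5.0 TPM (-2.07, adjusted p = 0.00802 in limma). The B cell list moved with it, as 6 of 7 genes fell, led by Blk (-2.66), while Cd22, at 1.2 to 2.7 TPM, rose. Among those that fell, Pax5 (0.8 and 0.6 TPM with HFD) and Fcer2a (0.7 and 0.8 TPM) passed the filter only through the ND samples, where they are high. Ms4a2 was low, at 1.3 and 1.7 TPM with ND and 0.4 and 0.5 TPM with HFD (-0.78, adjusted p = 0.0359 in limma, and 0.0977 and 0.0748 without HFD replicate 1 and 2). It passed the filter only through the ND samples, where it is high, and it lost its call with no filter (adjusted p = 0.059 in limma) and with 5 TPM added (-0.25). The mast cell genes fell in 6 of 6, among them Mcpt4 (-1.91), a mast cell protease. The related genes Tmem176a and Tmem176b fell as well, with log2 fold changes of -1.79 and -1.56.

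Ms4a5, Ms4a13 and Ms4a14, which are known from testis and sperm and lie on the far side of Ms4a7 from the other members, did not pass the test and stood out in 1 library. Ms4a5 was at 23.8 TPM in HFD replicate 1 and at 5.4 to 6.0 TPM in the others. The first HFD sample had 3.97, 4.37 and 2.08 times the level of the second for these 3 genes, and the 5 spermatid genes were between 3.01 and 4.13 times higher. Without HFD replicate 2, Ms4a5 (1.91, adjusted p = 0.0276 in limma) and Ms4a14 (1.2, adjusted p = 0.0356 in limma) passed the thresholds, and without HFD replicate 1 they were at 0.086 and 0.18 while Ms4a13 turned to -0.26. The part of the spermatid transcripts in these levels was not tested. No member showed this pattern, and the ratio of HFD replicate 2 to HFD replicate 1 ran from 1.02 for Ms4a7 to 1.29 for Ms4a4c, with Ms4a4d at 1.95.

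**Figure D4:**
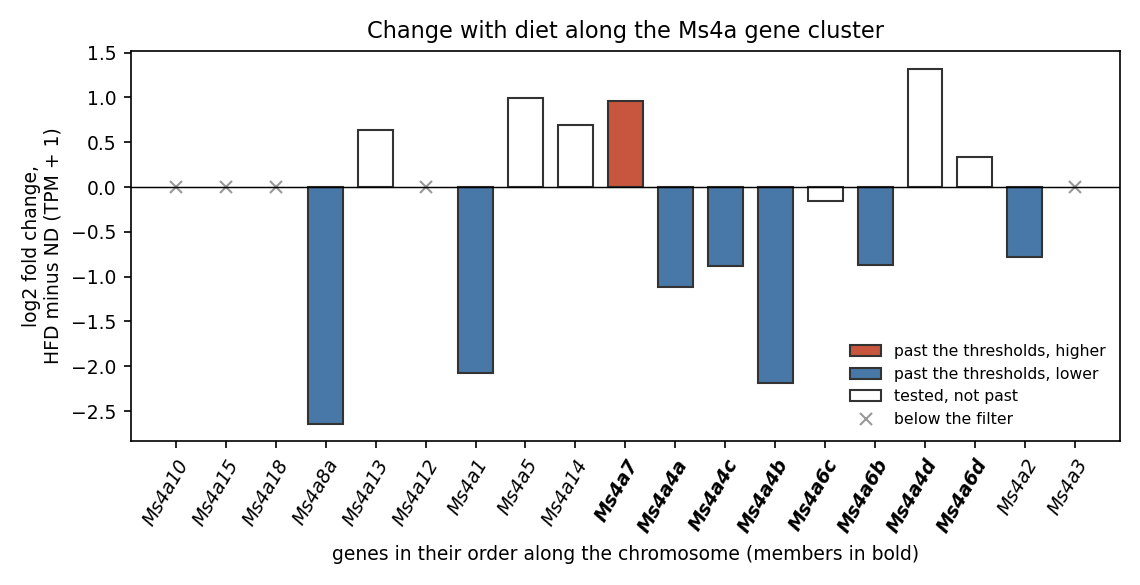
Log2 fold changes (HFD minus ND, of TPM + 1) of the 19 genes of the Ms4a cluster in their order along chromosome 19, with members in bold, filled bars for genes past both thresholds, open bars for genes tested and not past them, and crosses for genes below the filter. Ms4a7 (0.96) stands between Ms4a14 (0.69) and Ms4a4a (-1.12), and Ms4a4a, Ms4a4c and Ms4a4b, which all fell, lie side by side.

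Lastly, the genes whose pattern over the 4 samples was most like that of a member were named by the distance of log2(TPM + 1), centred on the ND mean, among the 8111 genes that averaged 10 TPM or more. For Ms4a7 these were Atp7a (distance 0.016), Rars (0.052) and Npc1 (0.060). For Ms4a4a they were LOC108167725 (0.044), Bcl2 (0.058) and Pla2g16 (0.062). For Ms4a4b they were Il2rb (0.11), Tnfrsf18 (0.11) and Ly6g5b (0.13). With 4 samples such a likeness is a description.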

How the data were processed

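RNA was measured in 2 ND and 2 HFD samples of CD45+ cells. The deposited values are TPM per gene, which the authors made by trimming reads with Trim Galore 0.4.2 and cutadapt 1.9.1, aligning them to mm10 with STAR 2.6.1e, removing duplicate reads with Sambamba and counting with featureCounts 1.6.2 before the length and depth scaling. The libraries were made with a stranded mRNA kit, while the annotation and the strand setting of the counting are not given in the sources used here.

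Members were matched by symbol. Genes with at least 1 TPM in at least 2 samples were compared as log2(TPM + 1) with limma 3.58.1 in R 4.3.3 (variance trend, two-sided, Benjamini-Hochberg adjustment), since TPM are not counts, and the steps were tested on simulated data. The added 1 makes fold changes of low genes smaller. Depth was estimated from the steps in TPM times length of 200 to 244 microRNA genes per sample, and 1 read per kb came to 0.0607 to 0.0711 TPM. Read numbers use the GENCODE vM21 transcript length and are approximate. Coding sequences and promoters were aligned globally with Biopython 1.88.

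Named were the members, the Ms4a relatives past the filter, the partner genes, the most abundant and most changed genes of the lists, where a result turned on them, and the nearest patterns, while Adgre1, C1qa and Cd22, the paired comparisons of members and the promoter pairs and motifs were picked during the analysis. The members and the lists were chosen with earlier results of these data known. The alternatives were other pseudocounts, filters, scalings and fold limits, no variance trend, a replicate block and each sample left out.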

Additional observations from a re-analysis of the deposited data

How the results depend on the processing

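The log2 fold change of each member kept its sign under every alternative run. Over the 9 settings on all 4 samples that kept the 1.5-fold limit, Ms4a7 (0.85 to 0.97), Ms4a4a (-1.27 to -1.09), Ms4a4b (-2.28 to -2.03) and Ms4a6b (-0.98 to -0.84) kept their calls. Ms4a4c lost its call in 4 of the 9, and its adjusted p in limma ran from 0.0338 to 0.0867 over the 9. A pseudocount of 5 TPM took it under the fold limit (-0.55), and no filter, quantile normalization and the block took it over the p limit. The number of members called was 5, and a 2-fold limit left 2, Ms4a4a and Ms4a4b (0 higher and 2 lower in HFD), and removed Ms4a7, Ms4a6b and Ms4a4c. With one sample left out it lay between 0 and 4 (0 to 1 higher, 0 to 3 lower). The diet left with 1 sample is then assumed to vary like the other. The number of genes called was 3097, against 2015 when 5 TPM were added before taking logs, 1602 under a 2-fold limit, and from 0 to 4232 with one sample left out. The cause was not tested. Over 9 alternatives the differences from Ms4a4b ran from 0.94 to 1.16 for Ms4a4a, from 2.95 to 3.28 for Ms4a7 and from 3.10 to 3.83 for Ms4a4d. Quantile normalization gave 0.098 for Adam10 and -0.19 for Fcer1g. The results that reversed were Syk with quantile normalization (-0.027), Ms4a13 without HFD replicate 1 (-0.26, with leave-one-out values up to 1.53), Ms4a6c relative to the macrophage list without HFD replicate 1 (0.027, with leave-one-out values down to -0.12) and Ms4a4b relative to the T cell list with a pseudocount of 0.1 TPM (0.031).

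Replicates are numbered 1 and 2 in each diet, but the deviations of same-numbered samples were uncorrelated across genes (-0.015), and a shared number was read as a name only. No pairing was assumed. With the replicate block 812 genes and 4 members were called, and Ms4a4c was lost, as were Adam17 (adjusted p in limma 0.0541) and Clec7a (0.0724). The block, quantile normalization, no filter and 5 TPM added also removed the call of Ms4a2 (adjusted p in limma 0.0925, 0.0843, 0.059 and 0.043, the last under the fold limit).

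Ms4a4c rests on the fewest reads of the members, and the 2 samples per diet limit all tests.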
